A study of Mus musculus with 2 samples.

Results

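The genes examined here are the 3 transforming growth factor-beta (TGF-beta) ligands Tgfb1, Tgfb2 and Tgfb3, the receptors Tgfbr1, Tgfbr2 and Tgfbr3, the latent TGF-beta binding proteins Ltbp1, Ltbp2 and Ltbp4, and the induced matrix gene Tgfbi. They were chosen by gene symbol, and all 10 were found among the 27254 genes counted in the series. Cells were dissociated from the whole lung of 2 newborn mice at postnatal day 1, 1 mouse per batch, and captured by Drop-seq, in which each RNA is tagged in its droplet with a cell barcode and a random molecular tag (UMI). Both mice were female, wild-type C57BL/6J animals without treatment, so Batch 1 and Batch 2 are replicates of a single group and the comparisons are between cell types of the same lungs. The whole lung was dissociated without sorting, and a share of cells depends on which cells came free.

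TGF-beta is made as a latent complex. The mature dimer stays bound to its propeptide, and the propeptide is linked to a latent TGF-beta binding protein that holds the complex in the extracellular matrix until integrins or proteases release it. The free ligand binds the type II receptor (Tgfbr2), which activates the type I kinase receptor (Tgfbr1), and SMAD proteins carry the signal to the nucleus. The type III receptor (Tgfbr3, betaglycan) lacks a kinase and presents ligand, TGF-beta2 above all, to the type II receptor. In the developing lung the pathway is known for its roles in branching, in septation of the alveoli and in the formation of myofibroblasts.

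Tgfbi and Ltbp2 had the largest differences between mesenchymal cell types, and the bases just upstream of their annotated starts are shown for that reason. Both windows come from the RefSeq promoter table for GRCm38.p6 and were ended before the first base of the gene in the GENCODE annotation. Capitals mark the letters CAGAC, a short SMAD-binding motif, or GTCTG, its reverse complement. The window of Tgfbi covers chr13:56609336-56609522 on the plus strand, and that of Ltbp2 covers chr12:84876533-84876741 on the minus strand.
Tgfbi: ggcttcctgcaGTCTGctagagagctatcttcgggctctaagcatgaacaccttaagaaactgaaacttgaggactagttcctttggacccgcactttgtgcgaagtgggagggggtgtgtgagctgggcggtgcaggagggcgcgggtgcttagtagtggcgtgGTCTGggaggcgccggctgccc
Ltbp2: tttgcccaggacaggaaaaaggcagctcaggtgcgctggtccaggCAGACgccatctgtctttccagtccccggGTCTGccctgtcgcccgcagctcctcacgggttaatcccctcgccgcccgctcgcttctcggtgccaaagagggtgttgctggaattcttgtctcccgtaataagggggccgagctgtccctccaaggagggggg
The 187 bases of Tgfbi held 2 matches, as did the 209 bases of Ltbp2. Of all 32851 windows cut to the same length, 7.31% held at least 2 matches at the length of Tgfbi and 8.58% at that of Ltbp2. The window of Tgfb2 also held 2 matches, those of Tgfbr2 and Ltbp1 held 1 each, and those of Tgfb1, Tgfbr1 and Ltbp4 held 0. The window of Ltbp4 had 170 bases and the others named here 250. At 250 bases, 42.2% of all windows held at least 1 match and 11.7% at least 2, and at 170 bases 31.8% held at least 1. RefSeq gave 2 windows for Tgfbr1, 2 for Ltbp1 and 3 for Ltbp4, of which 1 each was counted. A match describes the letters of the window and not a bound site.

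After removal of cells with over 10% mitochondrial UMIs, 2388 cells with 4432553 UMIs remained in Batch 1 and 5615 cells with 18232639 UMIs in Batch 2, with a median of 1386.5 and 2014 UMIs per cell. The batches shared 0 cell barcodes. Cells were clustered without the 10 genes and without 36 other genes of the pathway, and clusters were named from marker lists; names carry the word "like" because they were rebuilt here. The types compared most met their markers: in both batches all 9 matrix fibroblast markers and all 10 mesothelial markers were higher in the cells of that name than in the other cells, as were 6 of 7 myofibroblast markers in myofibroblast-like cells and 9 of 10 smooth muscle markers in myofibroblast/smooth muscle-like cells. In the mixed myofibroblast/smooth muscle-like cells all 7 myofibroblast markers were higher too. Their sum was 59.8 and 19.5 UMIs per 10000, against 14.1 and 10.9 in myofibroblast-like cells, so the names do not rank these types by myofibroblast markers. The study chose Tgfbi as a marker of myofibroblast and smooth muscle cells in these same libraries, so its pattern is no independent evidence. A further 383 cells carried markers of several lineages and were left out of the types. Levels are summed UMIs of a gene per 10000 UMIs of the same cells. They are tag counts at transcript ends and are compared between cells, not between genes. Intervals cover counting error only.

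**Figure D1:**
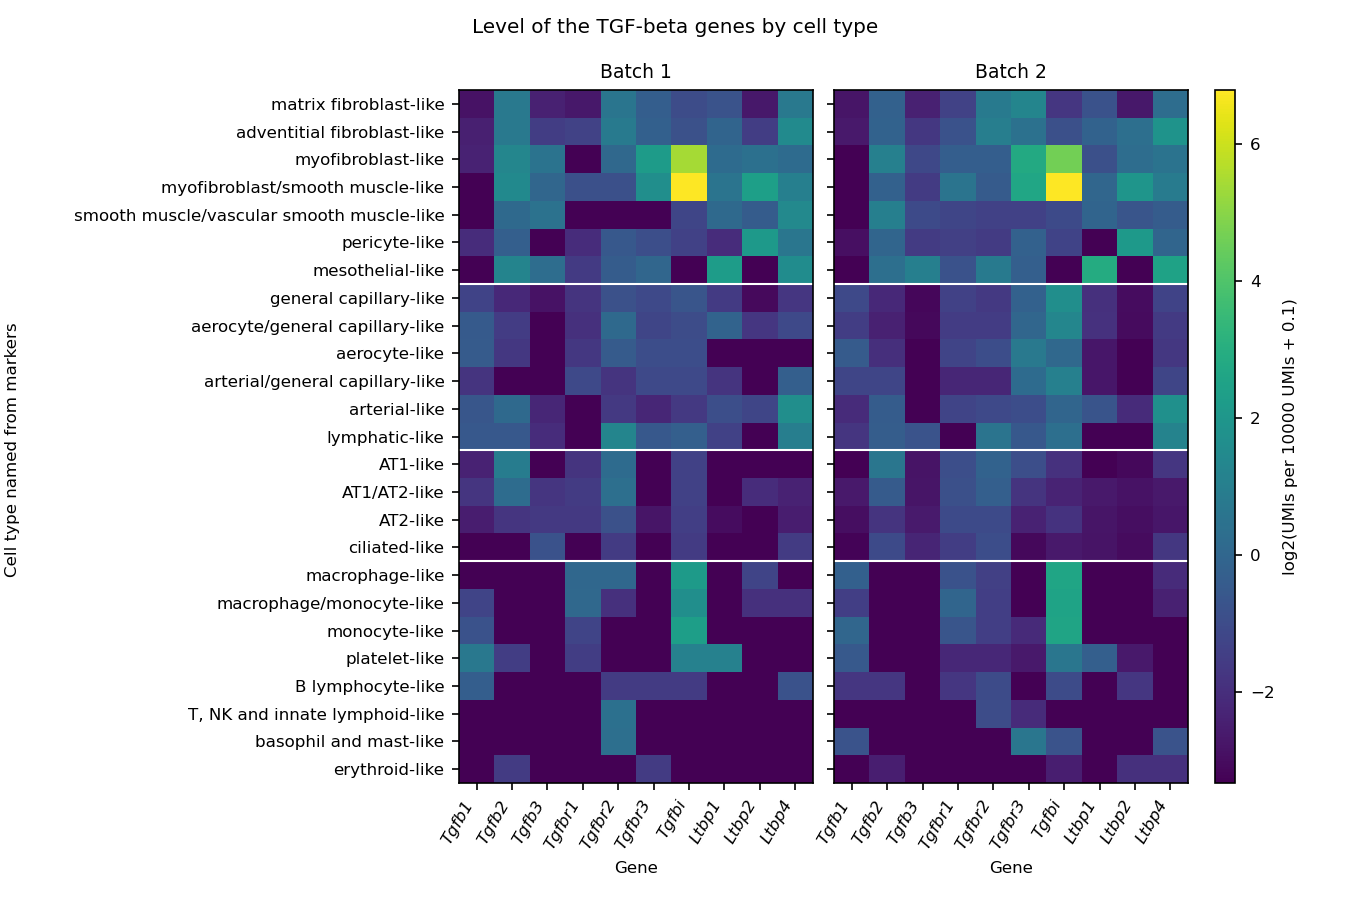
Level of the 10 genes (columns) in the 25 named cell types with at least 5 cells in both batches (rows), as log2 of UMIs per 10000 UMIs plus 0.1, with 1 panel per batch; white lines separate mesenchymal, endothelial, epithelial, and immune and erythroid types. Tgfbi reached 107 UMIs per 10000 in Batch 1 and 109 in Batch 2 in myofibroblast/smooth muscle-like cells, the brightest field of both panels.

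Tgfb1 encodes the TGF-beta1 ligand and lies on chromosome 7 (GRCm38, bases 25687002 to 25705077). It was measured in immune and endothelial cells. Its level was 0.578 UMIs per 10000 in immune cells of Batch 1 and 0.512 in Batch 2, and 0.420 and 0.308 in endothelial cells. Mesenchymal cells held 0.0492 and 0.0356, and epithelial cells 0.103 and 0.0351, so in each batch both lay below immune and endothelial cells. Among types, platelet-like cells had 1.55 and 0.604, from 6 and 10 UMIs. Monocyte-like cells had 0.483 and 0.923, and aerocyte-like cells, the capillary endothelium that faces the alveolar epithelium, had 0.644 and 0.641. The ranges of the 2 batches overlapped between these types, and of the 24 pairs of neighbours in the order of all 25 types only 1 was apart. Tgfb1 UMIs were found in 0 of 209 myofibroblast-like and 0 of 202 myofibroblast/smooth muscle-like cells of Batch 2.

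Tgfb2 (chromosome 1, bases 186622792 to 186705989) was the ligand of mesenchymal cells and of AT1-like cells, the flat gas-exchange epithelium. Mesenchymal cells held 1.69 UMIs per 10000 in Batch 1 and 0.970 in Batch 2. Epithelial cells held 0.646 and 0.518, endothelial cells 0.247 and 0.189, and immune cells 0.0361 and 0.0183 from 1 and 2 UMIs. The order of the lineages was thus the same in both batches. Myofibroblast-like cells stood first among types at 2.39 and 1.99, followed by mesothelial-like cells at 2.26 and 1.21 and myofibroblast/smooth muscle-like cells at 2.66 and 0.774. AT1-like cells had 1.81 and 1.47, and these leading types were not separated by their batch ranges. AT1-like and AT1/AT2-like cells together held 84.0% and 72.4% of the epithelial Tgfb2 UMIs in 36.2% and 46.4% of the epithelial cells. Within the endothelium, arterial-like cells held 33.3% and 33.7% of the Tgfb2 UMIs in 6.62% and 8.36% of the cells.

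Tgfb3 (chromosome 12, bases 86056745 to 86079041) had 72 UMIs in all cells of Batch 1 and 137 in Batch 2, the fewest of the ligands to rest a level on. Mesenchymal cells held 0.273 and 0.186 UMIs per 10000, epithelial cells 0.194 and 0.0652, endothelial cells 0.0365 and 0.0242, and immune cells had no UMI in either batch. Mesothelial-like cells, the cells of the pleura, had 1.13 and 1.93 UMIs per 10000 from 5 and 8 UMIs. In Batch 2, 6 of the 11 mesothelial-like cells had a Tgfb3 UMI. Smooth muscle/vascular smooth muscle-like cells had 1.32 and 0.386, and myofibroblast-like cells 1.34 and 0.359. None of the neighbouring types were apart in both batches, 0 of 24 pairs, so the order of neighbours was not resolved. Types further apart in the order could differ: matrix fibroblast-like cells had 0.0889 and 0.0891, below mesothelial-like cells in both batches.

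Tgfbr1 (chromosome 4, bases 47353222 to 47414931) encodes the type I kinase receptor and was spread over all 4 lineages. Immune cells held 0.433 and 0.640 UMIs per 10000, epithelial cells 0.207 and 0.388, endothelial cells 0.164 and 0.273, and mesenchymal cells 0.115 and 0.452. Mesenchymal cells were therefore the lowest lineage in Batch 1 and the second highest in Batch 2. Among types, macrophage/monocyte-like cells had 0.969 and 0.884, and myofibroblast/smooth muscle-like cells had 0.459 and 1.40, the latter from 5 and 47 UMIs. A further 131 immune cells of Batch 2 could not be named; they formed 3 clusters with Ccl6 or Ctss as the leading gene, held 1.54 UMIs of Tgfbr1 per 10000 and carried 42 of the 70 immune UMIs of that batch. None of the 24 neighbouring pairs were apart.

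Tgfbr2 (chromosome 9, bases 116084293 to 116175360), the type II receptor that binds ligand first, was measured in every lineage with the highest level in mesenchymal cells. These held 1.29 UMIs per 10000 in Batch 1 and 1.35 in Batch 2, against 0.736 and 0.561 in epithelial, 0.676 and 0.279 in endothelial and 0.325 and 0.283 in immune cells. Within the mesenchyme, matrix fibroblast-like cells had 1.41 and 1.72 and adventitial fibroblast-like cells 1.65 and 1.90, while pericyte-like cells had 0.585 and 0.239 and smooth muscle/vascular smooth muscle-like cells 0 and 0.289. Lymphatic endothelial-like cells had 2.33 and 1.38 UMIs per 10000, from 16 UMIs in 20 cells and 14 UMIs in 25 cells. With each cell thinned to 600 UMIs, adventitial fibroblast-like cells took the first place, at a mean of both batches of 1.88 against 0.750 for the lymphatic cells, whose median of 2721.5 and 3958 UMIs per cell was above that of most types. After thinning only 1 of 20 and 1 of 25 lymphatic cells had a UMI, so the change of place rests on few counts. In Batch 2, 19 of 1160 matrix fibroblast-like cells had UMIs of both receptors of the signalling pair, where 58 had Tgfbr1 and 299 had Tgfbr2. In types with more UMIs per cell both were found more often, in 47 of 363 AT1/AT2-like cells (median 6356 UMIs) and in 15 of 67 ciliated-like cells (median 11959). At these counts that is a statement about detection.

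Tgfbr3 (chromosome 5, bases 107106570 to 107289629), the ligand-presenting betaglycan, was highest in myofibroblast-like and myofibroblast/smooth muscle-like cells. The latter form a mixed type: of its Batch 1 cells in the study's cell list, 34 are listed as smooth muscle, 32 as myofibroblasts and 1 as a matrix fibroblast. That list was used here in a shortened form that covers part of Batch 1. Myofibroblast-like cells held 4.59 UMIs per 10000 in Batch 1 and 6.85 in Batch 2, and myofibroblast/smooth muscle-like cells 3.12 and 6.28. These cells were set apart from the third type, matrix fibroblast-like cells at 0.703 and 2.31. In cells thinned to 600 UMIs, 16 of 80 and 60 of 209 myofibroblast-like cells had a Tgfbr3 UMI, and 36.2% and 55.5% had one without thinning. A UMI of this gene was found in 0 of 34 and 0 of 59 macrophage/monocyte-like cells. The upper Wilson limits of these shares were 10.2% and 6.11%. They concern detection at this depth and set no limit on the share of cells that express the gene. Pericyte-like cells had 0.439 and 0.787, and smooth muscle/vascular smooth muscle-like cells 0 and 0.289. Endothelial cells held 0.338 and 0.827, among them aerocyte-like cells 0.430 and 1.60, and epithelial cells 0.0258 and 0.143.

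Ltbp1 (chromosome 17, bases 75005568 to 75392512) encodes a latent TGF-beta binding protein that links the latent complex to the matrix. Mesothelial-like cells led with 4.74 and 7.24 UMIs per 10000, from 21 UMIs in 21 cells and 30 UMIs in 11 cells, and were set apart from every following type. A UMI was found in 47.6% and 81.8% of these cells, and in 23.8% and 45.5% after thinning. In AT2-like cells, the surfactant-producing epithelium, it was found in 0.575% and 1.85%, with a median of 2051.5 and 3386.5 UMIs per cell against 1936 and 2462 in mesothelial-like cells. Platelet-like cells ranked second at 2.06 and 0.725, but all 8 UMIs of Batch 1 lay in 1 cell and the 12 of Batch 2 in 4 cells. They made up 100.0% and 80.0% of the Ltbp1 UMIs of the immune lineage. Of the 13 platelet-like cells of Batch 1, 10 stand in the shortened copy of the study's list, as macrophages, proliferative lymphocytes or platelet contaminants, and the others are not in that copy. Myofibroblast/smooth muscle-like cells had 1.38 and 0.923, matrix fibroblast-like cells 0.501 and 0.488, and pericyte-like cells 0.146 and 0 from 1 UMI in all.

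Ltbp2 (chromosome 12, bases 84783212 to 84876532) belongs to the same family by structure but does not bind the latent complex in the way Ltbp1 does, and is a protein of elastic fibre microfibrils. Its level was highest in myofibroblast/smooth muscle-like and pericyte-like cells. Myofibroblast/smooth muscle-like cells held 5.14 UMIs per 10000 in Batch 1 and 3.72 in Batch 2, and pericyte-like cells 4.24 and 4.17. These types overlapped with each other and were apart from the next, myofibroblast-like cells at 1.24 and 1.11. Smooth muscle/vascular smooth muscle-like cells had 0.660 and 0.531, from 2 and 11 UMIs. Adventitial fibroblast-like cells had 0.253 and 1.20, matrix fibroblast-like cells 0.0566 and 0.0563, and mesothelial-like cells no UMI. Pericyte-like and myofibroblast/smooth muscle-like cells together held 75.2% and 71.8% of the mesenchymal Ltbp2 UMIs in 11.8% and 18.2% of the mesenchymal cells. A UMI was found in 24.1% and 26.1% of the thinned pericyte-like cells and in 0.354% and 0.345% of the thinned matrix fibroblast-like cells.

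Ltbp4 (chromosome 7, bases 27305136 to 27337692), which binds latent TGF-beta1 and helps to assemble elastic fibres, was measured in the pleura, in vessels and in connective tissue. Mesothelial-like cells had 2.93 and 5.55 UMIs per 10000, arterial-like cells 3.11 and 3.25, and adventitial fibroblast-like cells 2.74 and 3.52. These types overlapped and were set apart from the following one, lymphatic-like cells at 1.89 and 2.17. With each cell thinned to 600 UMIs arterial-like cells came first, at a mean of both batches of 3.55 against 1.15 in mesothelial-like cells. The mesothelial value rests on few counts, as 1 of 21 and 1 of 11 thinned cells had a UMI. In the endothelium, arterial-like cells held 33.3% and 43.8% of the Ltbp4 UMIs in 6.62% and 8.36% of the cells, while general capillary-like cells had 0.206 and 0.306. Matrix fibroblast-like cells had 1.59 and 1.13, AT2-like cells 0.0735 and 0.0520. Of the family, Ltbp1 was thus highest at the pleura and Ltbp4 at the pleura, arteries and adventitia. Ltbp2 was highest in myofibroblast/smooth muscle-like and pericyte-like cells.

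Tgfbi (chromosome 13, bases 56609523 to 56639562) encodes a secreted, collagen-binding matrix protein whose transcription TGF-beta is known to induce. In myofibroblast/smooth muscle-like cells it reached 107 UMIs per 10000 in Batch 1 and 109 in Batch 2, and 87 of 87 and 201 of 202 cells had a UMI. Myofibroblast-like cells held 42.4 and 24.9, with a UMI in 93.8% and 76.1% of cells. These types made up 13.5% and 21.1% of the mesenchymal cells and held 96.1% and 98.3% of the mesenchymal Tgfbi UMIs. Other mesenchymal types differed. Of the smooth muscle/vascular smooth muscle-like cells in the study's shortened list, 9 are listed as Pericyte-1 and 2 as Pericyte-2. The rest are 2 MatrixFB-2 cells, 1 MyoFB-1, 1 MyoFB-2 and 1 smooth muscle cell. Tgfbi stood at 0.330 and 0.386 UMIs per 10000 in this type. Pericyte-like cells had 0.293 and 0.308, against 0.412 and 0.202 in matrix fibroblast-like cells. In the latter, 4 of 848 cells carried 43 of the 51 UMIs of Batch 1, and without cells that held at least 2 UMIs the level was 0.0651 and 0.151. The next named types were monocyte-like cells at 5.00 and 5.93, macrophage-like cells at 4.43 and 6.07 and macrophage/monocyte-like cells at 3.07 and 5.66. The unnamed immune cells held 7.56 UMIs per 10000 in Batch 2, above these types, and 206 of the 446 immune Tgfbi UMIs of that batch; in Batch 1 there were 9 such cells with 24 UMIs. Thinned monocyte-like cells had a Tgfbi UMI in 27.0% of cells in both batches, AT2-like cells in 1.15% and 0.769%. Mesothelial-like cells, at or near the top for Tgfb2, Tgfb3, Ltbp1 and Ltbp4, had no Tgfbi UMI.

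Set side by side, the ligands and Tgfbi lay in partly different cell types. Of the 15 Batch 1 and 34 Batch 2 myofibroblast-like cells with a Tgfb2 UMI, 14 and 23 had a Tgfbi UMI, but of the 142 and 116 such matrix fibroblast-like cells only 2 and 6 did. Tgfbi was found at like shares in these types as a whole, in 75 of 80 and 159 of 209 myofibroblast-like cells and in 12 of 848 and 37 of 1160 matrix fibroblast-like cells. Across the 25 types, Pearson's r between Tgfb2 and Tgfbi on the log2 scale was 0.21 (Batch 1) and -0.08 (Batch 2), against 0.30 and -0.07 between Tgfb3 and Tgfbi. The third ligand, Tgfb1, had r of 0.11 and 0.36 with Tgfbi. In both batches Tgfbi ran closer to Tgfbr1 (r of 0.42 and 0.50) and Tgfbr3 (0.42 and 0.39) than to the ligands. Ltbp2 (0.57 and 0.32) was closer than the ligands in Batch 1, but in Batch 2 it lay below Tgfb1. Among the other members, Tgfb3 and Ltbp4 had r of 0.62 and 0.72, and Tgfb2 and Tgfb3 had 0.61 and 0.72. These are descriptions over types that share libraries and have few UMIs.

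**Figure D2:**
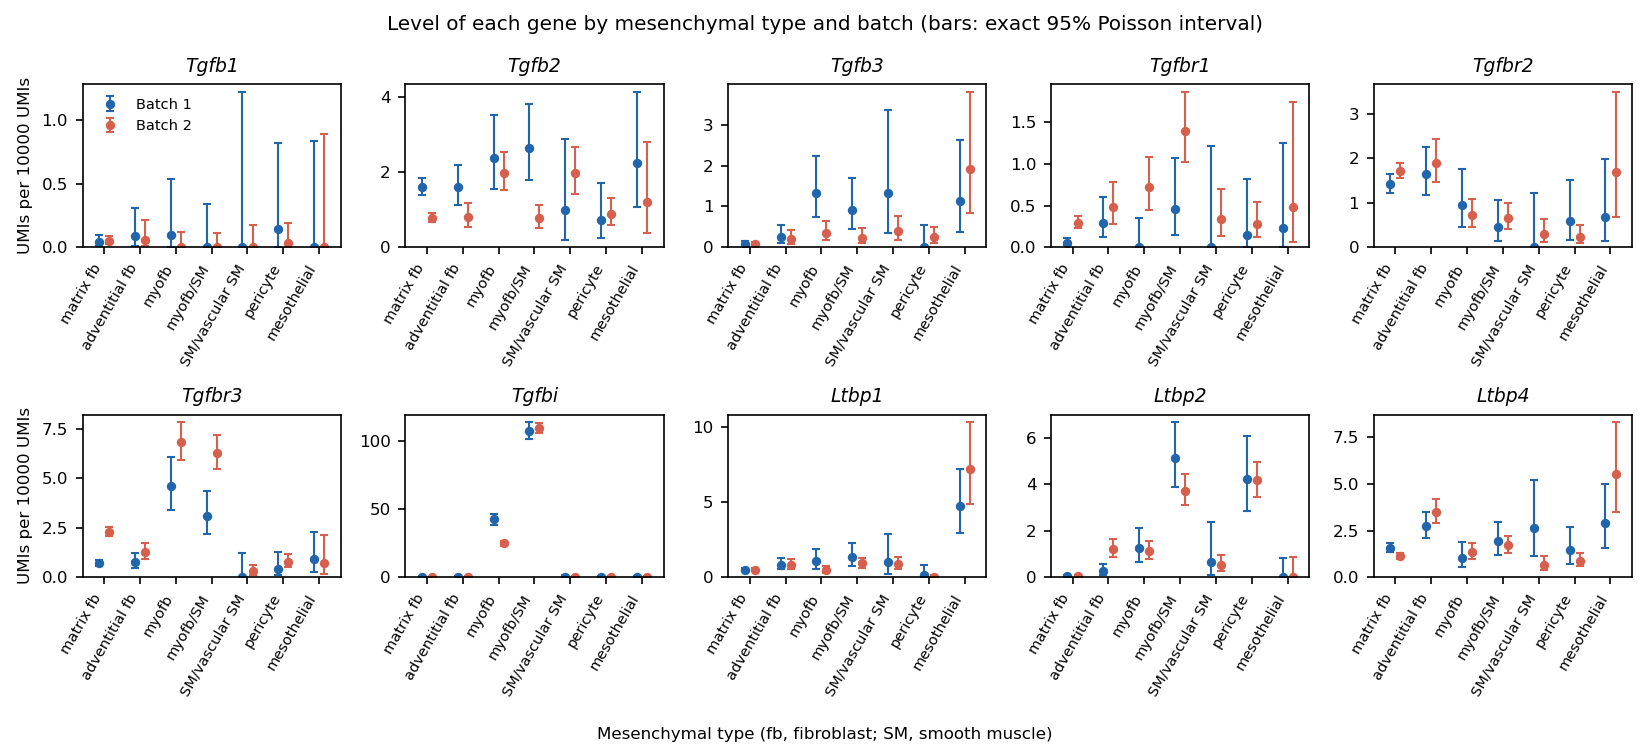
Level of each gene (UMIs per 10000 UMIs, linear axes from 0) in the 7 mesenchymal types, with a point per batch and exact 95% Poisson intervals, which cover counting error only. Tgfbi lies near the axis outside myofibroblast-like and myofibroblast/smooth muscle-like cells in both batches, Ltbp2 is high in myofibroblast/smooth muscle-like cells and in pericyte-like cells (4.24 and 4.17), and Ltbp1 is high in mesothelial-like cells (4.74 and 7.24).

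To test these differences, UMIs were summed per lineage and batch and each lineage was compared with the mean of the other 3 lineages on the log2 scale, over 12219 genes, with edgeR's quasi-likelihood test and the mouse as block. Mesenchymal cells differed in 9 of the 10 genes, 8 higher and 1 lower, where 18.3% of all genes tested were higher and 14.2% lower. The higher genes held all 3 binding proteins, 2 of 3 ligands and 2 of 3 receptors. Tgfbi was higher by a log2 fold change of 3.43 (SE 0.36, edgeR adjusted p = 1.31e-05), Tgfbr3 by 3.53 (SE 0.20, adjusted p = 5.9e-08), Tgfb2 by 3.01 (SE 0.22, adjusted p = 7.06e-07) and Tgfbr2 by 1.48 (SE 0.22, adjusted p = 0.000234). Ltbp2 was higher by 4.20 (SE 0.30, edgeR adjusted p = 4.1e-07), Ltbp4 by 3.15 (SE 0.21, adjusted p = 1.96e-07) and Ltbp1 by 2.01 (SE 0.27, adjusted p = 9.69e-05). Tgfb1 was the lower gene, at -2.48 (SE 0.36, edgeR adjusted p = 0.000217), and Tgfbr1 did not pass (adjusted p = 0.329). Tgfb3 passed with an edgeR adjusted p of 0.000263; its fitted value of 4.12 depends on the 0 UMIs of immune cells, and against the sum of the other lineages it was 1.85. Without Batch 2 the log2 ratio of Tgfb3 was 2.23 (single batches, prior count of 2).

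Immune cells differed in 8 genes, 3 higher and 5 lower, where 17.0% of genes tested were higher and 16.4% lower. Tgfb1 was higher by 2.67 on the log2 scale (SE 0.31, edgeR adjusted p = 2.71e-05), Tgfbr1 by 1.08 (SE 0.29, adjusted p = 0.0134) and Tgfbi by 1.56 (SE 0.39, adjusted p = 0.00831). The lower genes were Tgfbr3 (-2.79, SE 0.36), Ltbp4 (-2.90, SE 0.39), Tgfbr2 (-1.13, SE 0.32), Tgfb2 and Tgfb3, with edgeR adjusted p from 1.3e-05 to 0.0153. Tgfb2 rested on 3 immune UMIs, and its level in the other lineages was 28.5 times higher with a counting interval of 9.74 to 138.5. Tgfb3 had 0 immune UMIs, and the other lineages were at least 4.60-fold higher at a floor of 3 counts over both batches. Without the mouse as block, Tgfbr1 and Tgfbi no longer passed (edgeR adjusted p = 0.157 and 0.0668). With the unnamed cells of all lineages left out, Tgfbr1 was at 0.57 and did not pass (edgeR adjusted p = 0.294), and Tgfbi was at 1.20 (adjusted p = 0.0408). Against the sum of the other lineages, the log2 fold change of Tgfbi was 0.06. The fitted value of Tgfb3, -7.38, became -3.97 without Batch 1 and -2.92 without Batch 2, as a fit to 0 UMIs depends on the prior count.

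Epithelial cells also differed in 8 genes, 2 higher and 6 lower, where 22.3% of genes tested were higher and 16.1% lower. The higher genes were 2 of the 3 ligands, Tgfb2 at 1.81 (SE 0.25, edgeR adjusted p = 9.99e-05) and Tgfb3 at 2.97 (SE 0.75, adjusted p = 0.00869), whose fitted value again depends on the 0 UMIs of immune cells. Both calls rest on the mean over lineages: against the sum of the other lineages the values were 0.06 and 0.15 and did not pass. The lower genes were Tgfbi (-4.48, SE 0.57), all 3 binding proteins (Ltbp1 -2.71, Ltbp4 -1.90, Ltbp2 -1.65), Tgfbr3 (-1.99) and Tgfb1 (-1.81), with edgeR adjusted p from 4.44e-05 to 0.0154. Without the block the call of Tgfbr3 was lost (edgeR adjusted p = 0.0616), and with thinned cells 3 of the 8 genes passed. Without Batch 2 the log2 ratio was -1.09 for Tgfb1, 1.17 for Tgfb2 and 1.62 for Tgfb3, and without Batch 1 it was 1.25 for Tgfb3.

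Endothelial cells differed in 5 genes, 4 higher and 1 lower, where 16.8% of genes tested were higher and 13.9% lower. Higher were Ltbp4 (1.65, SE 0.22, edgeR adjusted p = 0.000115), Tgfb1 (1.62, SE 0.27, adjusted p = 0.000605), Tgfbr3 (1.25, SE 0.22, adjusted p = 0.000942) and Ltbp1 (0.95, SE 0.29, adjusted p = 0.0254), and lower was Tgfbr1 (-0.81, SE 0.28, adjusted p = 0.0443). Only 2 of these genes passed without the block, Tgfb1 and Ltbp4, and without Batch 2 the log2 ratio was 1.62 for Ltbp1 and -0.38 for Tgfbr1. With the unnamed cells of all lineages left out, 3 members passed: Ltbp1 was at 0.34 (edgeR adjusted p = 0.447) and Tgfbr1 at -0.69 (adjusted p = 0.147). Unnamed endothelial cells, 34 and 74 in number, held 40.6% and 35.0% of the endothelial Ltbp1 UMIs. Against the sum of the other lineages Ltbp4 and Tgfbr3 turned to -0.01 and -0.50 and did not pass, and mesenchymal cells held more of both per 10000 UMIs than endothelial cells in each batch.

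**Figure D3:**
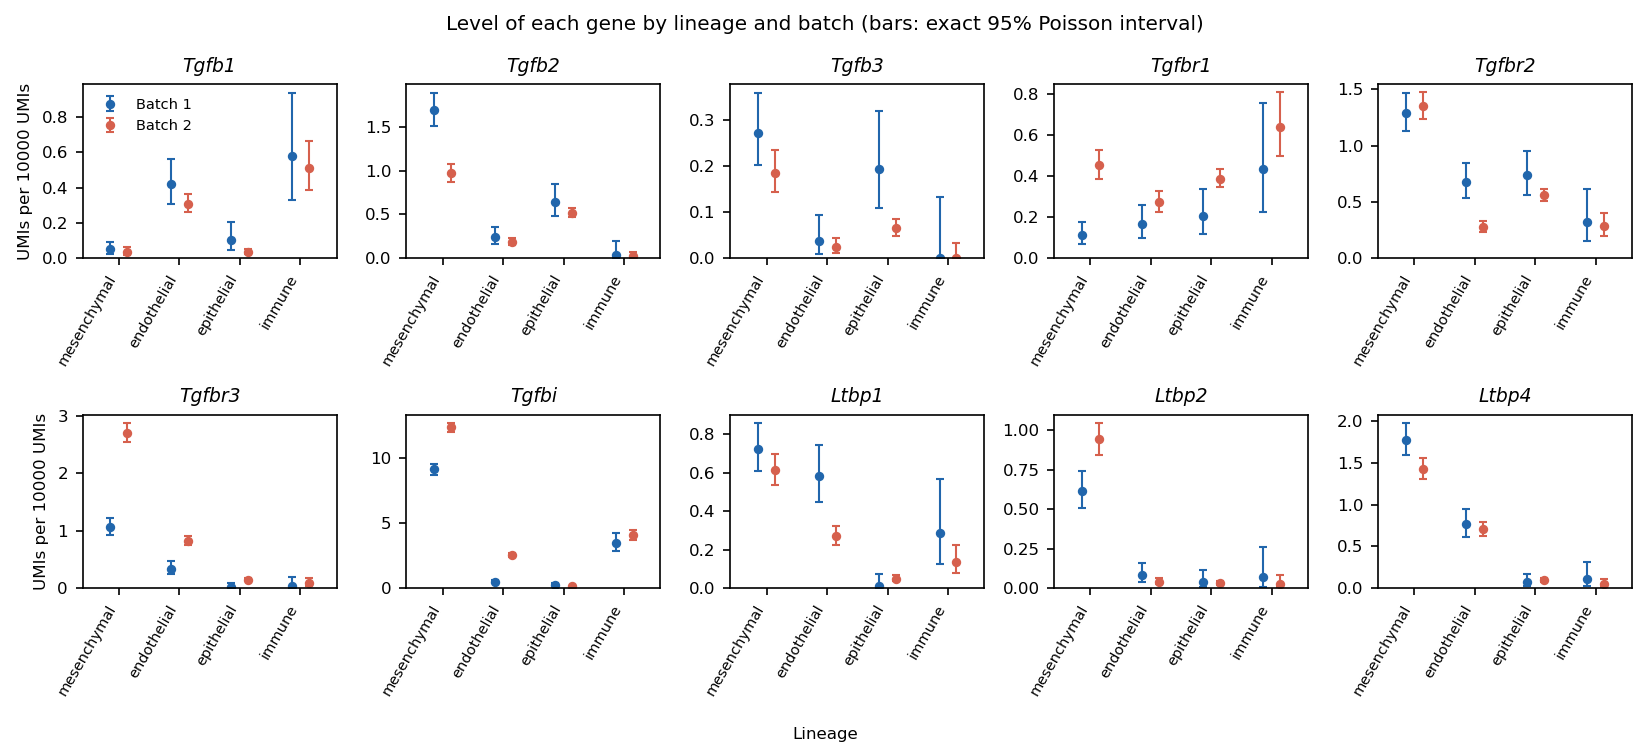
Level of each gene (UMIs per 10000 UMIs, linear axes from 0) in the 4 lineages, with a point per batch and exact 95% Poisson intervals, which cover counting error only. Tgfb1 is high in immune (0.578 and 0.512) and endothelial cells, whereas Tgfb2, Tgfbr3, Tgfbi, Ltbp2 and Ltbp4 are highest in mesenchymal cells of both batches.

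To compare cell types, the UMIs of 24 types of all lineages were summed per batch and fitted together over 6462 genes. Myofibroblast-like cells (here with the myofibroblast/smooth muscle-like cells, but without the smooth muscle/vascular smooth muscle-like cells) differed from matrix fibroblast-like cells in 6 of the 10 genes, 5 higher and 1 lower, where 5.60% of genes tested were higher and 5.97% lower. Tgfbi was higher by 7.63 on the log2 scale (SE 0.55, edgeR adjusted p = 3.72e-18) and Ltbp2 by 5.32 (SE 0.55, adjusted p = 6.81e-12). Tgfb3 was higher by 2.44 (SE 0.73, edgeR adjusted p = 0.0168), and both Tgfbr1 (1.68, SE 0.50, adjusted p = 0.0142) and Tgfbr3 (1.68, SE 0.37, adjusted p = 0.000418) were higher, whereas Tgfbr2 was lower (-1.42, SE 0.41, adjusted p = 0.0103). In this fit, the type I and III receptors thus differed in the opposite direction to the type II receptor. The myofibroblast group held 5 Tgfbr1 UMIs in Batch 1, with 0 in the 80 myofibroblast-like cells, and 69 in Batch 2. Without the mouse as block only Tgfbi and Ltbp2, 2 genes, passed. DESeq2 called 753 of all genes higher and 231 lower where edgeR called 362 and 386. DESeq2 differed in scaling, test and the number of genes (9219), its median of all genes was 0.46, and 4 members passed, without Tgfb3 (adjusted p = 0.0999) and Tgfbr2 (adjusted p = 0.247). Without Batch 1 the log2 ratio of Tgfb3 was 1.58.

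Pericyte-like cells, the mural cells of capillaries, differed from matrix fibroblast-like cells in 4 genes, 1 higher and 3 lower, where 6.05% of genes tested were higher and 5.59% lower. Ltbp2 was higher by 5.87 (SE 0.57, edgeR adjusted p = 2.62e-13). Lower were Tgfbr2 (-2.50, SE 0.54, edgeR adjusted p = 0.000353), Tgfbr3 (-1.52, SE 0.49, adjusted p = 0.0263) and Ltbp1 (adjusted p = 0.00382), the last from 1 pericyte UMI against 166, a ratio of 17.8 with a counting interval of 3.15 to 705.9. The calls of Tgfbr3 and Ltbp1 were lost under DESeq2, that of Tgfbr3 also without the block (edgeR adjusted p = 0.357), and among the pericytes in the shortened copy of the study's list, which covers part of Batch 1, the log2 ratio of Ltbp1 was 0.09. Without Batch 2 the log2 ratios were -1.23 for Tgfbr2, -0.64 for Tgfbr3 and -1.59 for Ltbp1. DESeq2 called 624 of all genes higher and 180 lower where edgeR called 391 and 361.

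Adventitial fibroblast-like cells, the collagen-rich fibroblasts around vessels and airways, differed from matrix fibroblast-like cells in 1 gene, where 2.75% of genes tested were higher and 1.04% lower. This was Ltbp2, higher by 3.64 on the log2 scale (SE 0.59, edgeR adjusted p = 8.8e-06), with 0.253 against 0.0566 UMIs per 10000 in Batch 1 and 1.20 against 0.0563 in Batch 2. Ltbp4 lay at 2.74 against 1.59 and 3.52 against 1.13 and did not pass (edgeR adjusted p = 0.0656). Without Batch 2, the log2 ratio of Ltbp2 was 1.74. DESeq2 called 152 of all genes higher and 16 lower where edgeR called 178 and 67.

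Mesothelial-like cells differed in 3 genes, all higher, where 6.56% of genes tested were higher and 6.53% lower and the median of all genes was -0.46. These were Tgfb3 (3.68, SE 0.87, edgeR adjusted p = 0.00153), Ltbp1 (3.24, SE 0.51, adjusted p = 9.61e-07) and Ltbp4 (1.27, SE 0.45, adjusted p = 0.0449). Tgfbi had 0 UMIs in these 32 cells; with 94 UMIs in matrix fibroblast-like cells this was not distinguishable at this depth (edgeR adjusted p = 0.2). Without the block Ltbp4 did not pass (edgeR adjusted p = 0.164), and with cells thinned to 600 UMIs its log2 fold change was -0.77, while without Batch 1 it was 2.27. DESeq2 called 773 of all genes higher and 101 lower where edgeR called 424 and 422, with the median of all genes at 0.49.

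AT1-like cells differed from AT2-like cells in 2 genes, both higher, where 5.85% of genes tested were higher and 6.21% lower. Tgfb2 stood at 1.81 against 0.196 UMIs per 10000 in Batch 1 and 1.47 against 0.188 in Batch 2, a log2 fold change of 2.66 (SE 0.46, edgeR adjusted p = 6.7e-06). Tgfbr3 had 0 UMIs in AT1-like cells of Batch 1 and 29 in Batch 2, and its fitted 1.68 (SE 0.59, edgeR adjusted p = 0.049) rested on Batch 2 alone. Only 1 of these genes, Tgfb2, passed without the block, and in Batch 1 alone the log2 ratio of Tgfbr3 was -0.70. DESeq2 called 482 of all genes higher and 286 lower where edgeR called 378 and 401.

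**Figure D4:**
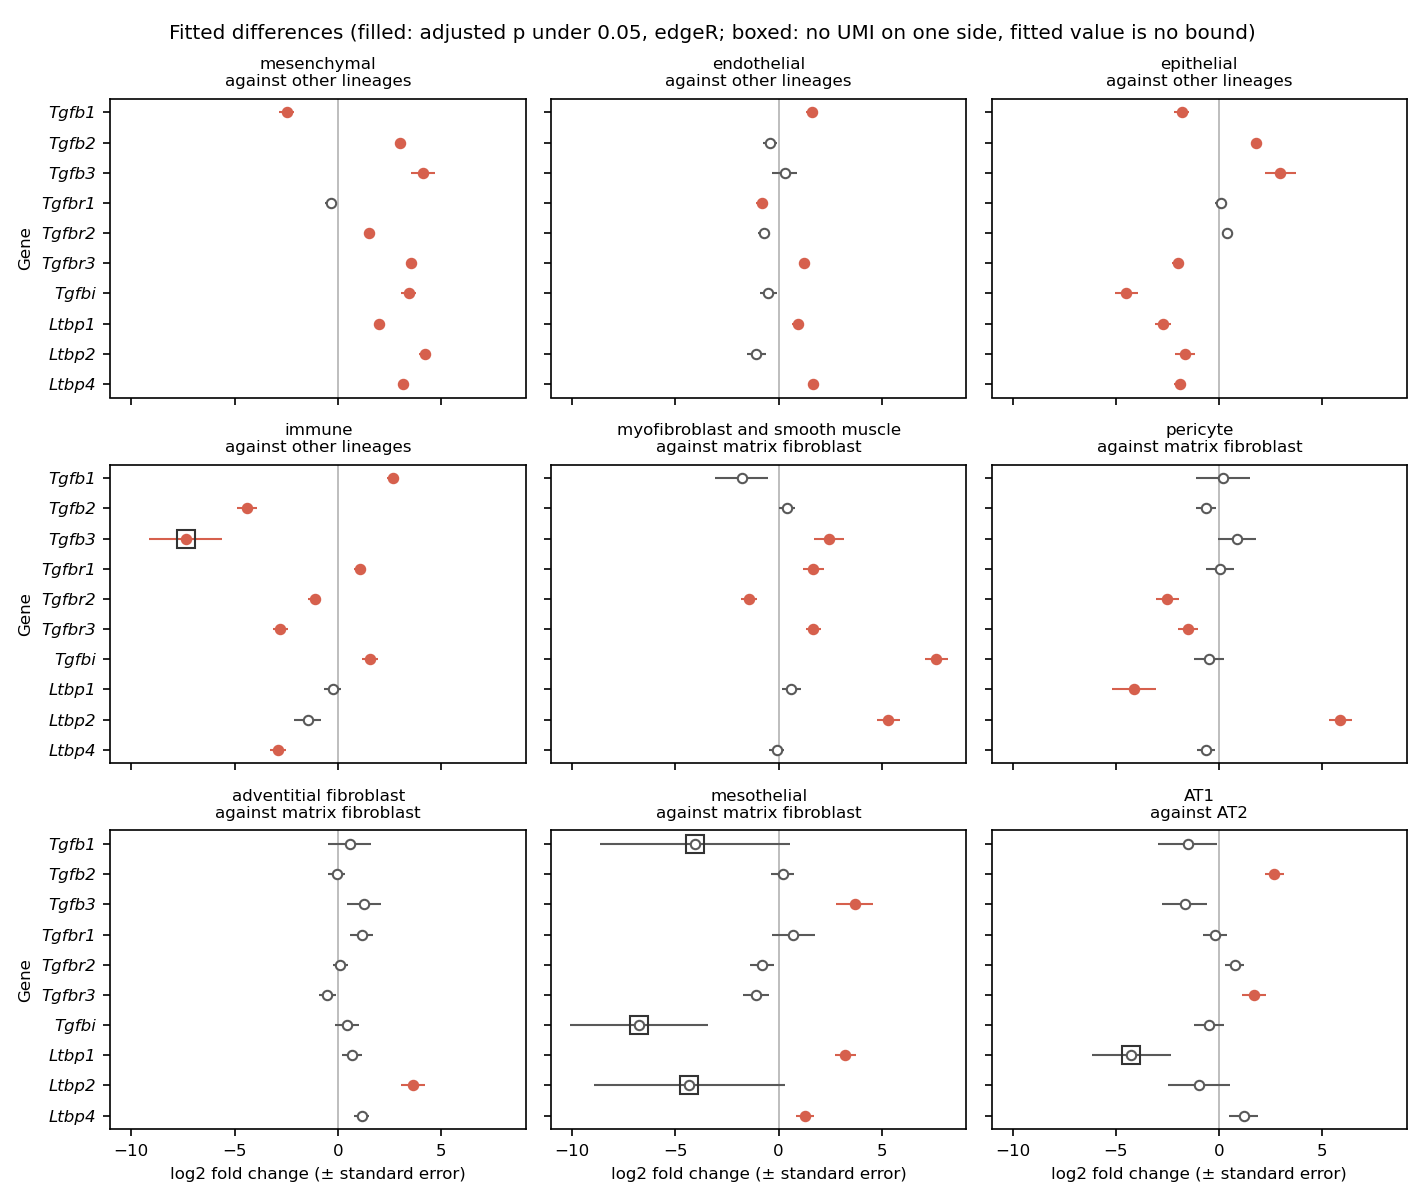
Fitted log2 fold change with its standard error (x axis) for the 10 genes (y axis) in the 9 comparisons; filled points passed an edgeR adjusted p of 0.05, and boxed points had no UMI on one side, so that the fitted value is no bound. The filled points lie mostly to the right for mesenchymal cells (8 higher, 1 lower) and to the left for epithelial cells (2 higher, 6 lower).

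The other 36 genes of the pathway were counted in the same fits. In mesenchymal cells 17 of 36 were higher and 2 lower, with all 4 listed targets among the higher, where 18.3% of all genes tested were higher and 14.2% lower. The largest differences were in Dcn, a proteoglycan that binds TGF-beta (2.202 UMIs per 10000 against 0.0373 in the other lineages of Batch 1 and 0.677 against 0.0140 in Batch 2, log2 fold change 7.68, SE 0.42, edgeR adjusted p = 1.18e-07, a fitted value that depends on the 0 UMIs of immune cells), the matricellular target Postn (5.42, SE 0.38, adjusted p = 4.23e-07) and the proteoglycan Bgn (5.20, SE 0.22, adjusted p = 4.75e-09). In endothelial cells 9 were higher and 10 lower (16.8% and 13.9% of all genes), led by the endothelial type I receptor Acvrl1 (4.82, SE 0.24, edgeR adjusted p = 2.05e-08) and the co-receptor Eng (4.58, SE 0.27, adjusted p = 9.39e-08), with the activator Thbs1 lower (-4.07, SE 0.28, adjusted p = 3.29e-07). In epithelial cells 6 were higher and 13 lower (22.3% and 16.1% of all genes), with Itgb6, a subunit of the integrin that activates latent TGF-beta, higher by 4.62 (SE 0.41, edgeR adjusted p = 2.23e-06) and Fn1 and Emilin1 lower (-4.26 and -4.11). In immune cells 6 were higher and 14 lower (17.0% and 16.4% of all genes), with the integrin subunit Itgb3 higher by 4.10 (SE 0.41, edgeR adjusted p = 7.63e-06), while Dcn had 0 immune UMIs and was at least 15.6-fold higher in the other lineages. Of the 14 genes of signal transduction and its inhibitors, 3 were higher in mesenchymal cells, 4 were higher and 3 lower in endothelial cells, 1 was higher and 1 lower in epithelial cells, and 4 were lower in immune cells, against the same shares of all genes.

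Between mesenchymal types 25 of the 36 genes could be tested. Postn was higher than in matrix fibroblast-like cells in the myofibroblast (4.66, SE 0.48), pericyte (6.89, SE 0.51) and adventitial (5.49, SE 0.49) comparison, with edgeR adjusted p from 7.28e-18 to 6.81e-12, and Fn1 was lower in myofibroblast-like (-4.07, SE 0.45) and pericyte-like cells (-5.93, SE 0.62). Fn1, another target of the pathway, thus differed in the opposite direction to Tgfbi and Postn; matrix fibroblast-like cells held 10.1 UMIs of it per 10000 in Batch 1 and 7.005 in Batch 2. Mesothelial-like cells had 0 UMIs of Fn1, Emilin1 and Tgfb1i1, where matrix fibroblast-like cells were at least 23.3-fold, 2.41-fold and 2.17-fold higher. Dcn had 0 UMIs in pericyte-like cells and was at least 3.60-fold higher in matrix fibroblast-like cells, and adventitial fibroblast-like cells held 10.2 UMIs per 10000 in Batch 1 and 2.86 in Batch 2 (log2 fold change 4.11, SE 0.43, edgeR adjusted p = 1.22e-10). AT1-like cells were higher than AT2-like cells in the target Ctgf (3.99, SE 0.55, edgeR adjusted p = 2.9e-08) and in Itgb6 (3.28, SE 0.72, adjusted p = 0.000491), and lower in the decoy receptor Bambi (-2.76, SE 0.75, adjusted p = 0.00561).

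Between the batches, some lineage levels differed by more than counting error, which is a description of 2 mice without a test. Tgfbi in endothelial cells stood at 0.493 UMIs per 10000 in Batch 1 and 2.53 in Batch 2, a ratio of 5.12 (counting interval 3.90 to 6.86), with 0.535 and 3.12 in general capillary-like cells. Tgfbi in mesenchymal and immune cells had ratios of 1.35 and 1.16. The mix of mesenchymal cells moved too. Myofibroblast-like and myofibroblast/smooth muscle-like cells together made up 13.5% of them in Batch 1 and 21.1% in Batch 2. Tgfbi stood at 42.4 and 24.9 UMIs per 10000 in myofibroblast-like cells and at 107 and 109 in myofibroblast/smooth muscle-like cells. The part of cell mix in the lineage ratios was not tested. Tgfbr3 had a ratio of 2.55 in mesenchymal and 2.45 in endothelial cells and the highest ratio of all, 5.54, in epithelial cells, from 2 and 114 UMIs and with a counting interval of 1.50 to 46.3, and Tgfbr1 a ratio of 3.94 in mesenchymal cells. The reverse held for Tgfb2 in mesenchymal cells (0.573, interval 0.491 to 0.669) and for Tgfbr2 and Ltbp1 in endothelial cells (0.414 and 0.463). Depth moved with the batch, at a median of 1386.5 and 2014 UMIs per cell, and its part in these ratios was not tested; batch, mouse and library cannot be told apart.

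**Figure D5:**
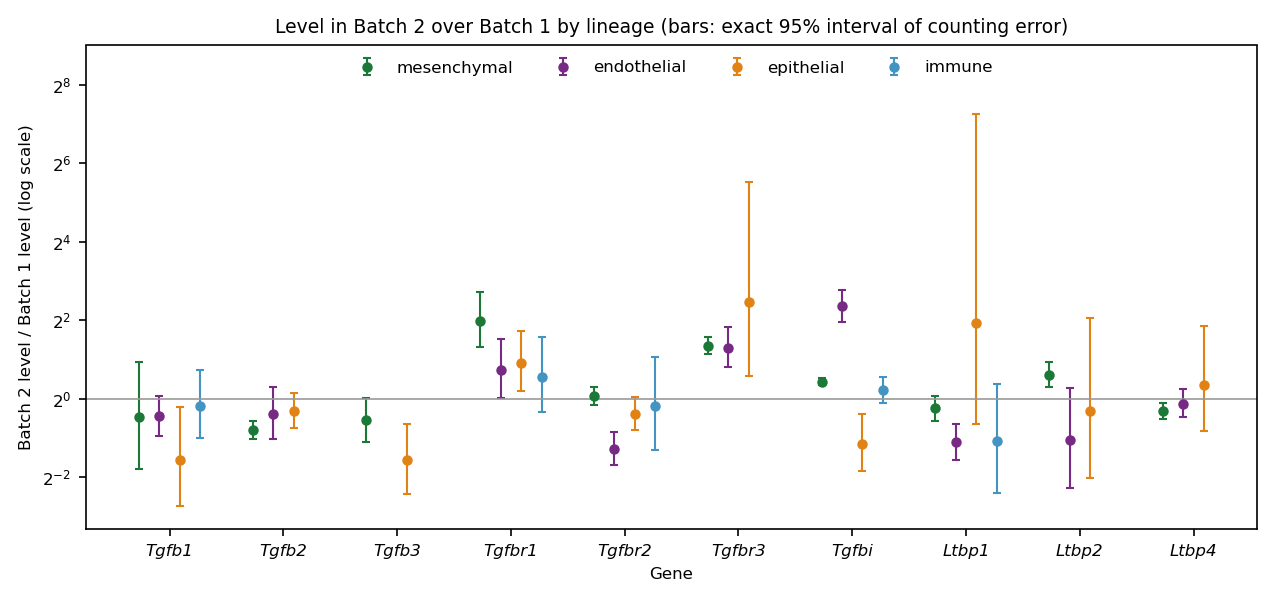
Level in Batch 2 divided by the level in Batch 1 (log axis) for each gene and lineage with at least 20 UMIs in both batches together; bars are exact 95% intervals of counting error. Epithelial Tgfbr3 (5.54, with a wide interval from few UMIs) and endothelial Tgfbi (5.12) lie highest, while mesenchymal Tgfb2 lies below 1 at 0.573.

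For each member, the genes with the most similar pattern were ranked by the mean over both batches of Pearson's r across the 25 types, among 6462 genes. Ltbp2 was closest to Spon2 (mean r 0.88) and to Mir143hg (0.86), the host of a smooth muscle microRNA cluster. Tgfb3 was closest to Kank1 (0.88), and Tgfb2 to Lamb2, a laminin chain of basement membranes (0.88), and Fkbp9 (0.84). Ltbp4 was closest to Maged1 (0.84) and the growth factor gene Igf2 (0.84), Tgfbr3 to Pkd2 (0.80) and Fibin (0.80), and Ltbp1 to Dcn (0.78) and Tpm2 (0.78). Tgfb1 was closest to Mcm3 (0.73) and to Nrros (0.73), which anchors latent TGF-beta1 on myeloid cells. Tgfbi was closest to Pros1 (0.69) and Crispld2 (0.66), Tgfbr2 to Il11ra1 (0.69) and Neo1 (0.64), and Tgfbr1 to Cnih4 (0.65) and Ltbr (0.65), and the 2 members of the signalling pair and Tgfbi had the lowest leading r of the 10 genes.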

How the data were processed

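Whole lung cells of 2 mice, 1 per batch, were profiled by Drop-seq at postnatal day 1. The authors aligned reads to mm10 (Bowtie2 2.2.7 in the submitters' processing notes) and, with Drop-seq tools, counted distinct UMIs over exons for every gene in a cell; the deposited counts are raw and unnormalized, and 0 further sample columns were set aside. Members and gene lists were chosen with earlier results of these data known. Of 2389 and 7555 deposited cells, 1 and 1940 exceeded 10% mitochondrial UMIs and were removed. Cells were normalized to 10000 UMIs, reduced to 30 principal components of 2000 variable genes without the members and the 36 pathway genes, aligned between batches by a Harmony procedure and clustered (Leiden, resolution 1; scanpy 1.11.5, leidenalg 0.10.2). Clusters were named from fixed marker lists, with at least 3 markers detected; the score threshold was set after seeing the data. Types were defined by other genes of the same cells, so differences between them are not independent of the clustering. Of the named types, 25 had at least 5 cells in both batches. Scrublet, run at an expected rate of 5%, called 13 and 118 cells doublets (0.544% and 2.10%); they were kept in the main counts.

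Counts summed per lineage or type and batch were compared with edgeR 4.0.16 (R 4.3.3; TMM, filterByExpr, quasi-likelihood test, Benjamini-Hochberg threshold 0.05), with the mouse as replicate block because the sums of a batch come from the same animal. Deviations of the lineages of a batch correlated at 0.178 to 0.441 in all 6 pairs. Those of the cell types correlated at 0 to 0.556, with a median of 0.11 and 157 of 276 pairs over 0.1. With 2 mice, p-values measure the spread between these sums. Levels carry exact Poisson and shares Wilson 95% intervals, for counting error only. Counts with 0 UMIs on a side were set against a floor of 3 counts. For depth, each cell was thinned to 600 UMIs, which left out 0 cells. Named were the 10 members, up to 3 pathway genes per comparison with the largest fold change past the threshold, and the 2 genes most like each member, of which some are not reported here. The fits were tested on simulated data, in which all groups shared the same gene shares, the spread was fixed in advance and 200 genes were changed. Of genes changed by 1 on the log2 scale, 7.29% were recovered for mesenchymal cells and 3.09% for pericytes against matrix fibroblasts. At a change of 2 these shares were 73.2% and 58.6%. For mesenchymal cells 80 genes were called in the simulation against 3959 in the data, and with fewer calls the adjusted threshold is stricter. These shares therefore do not carry over to the fits of the data. A gene that did not pass may still differ. Alternatives were no replicate block, DESeq2 1.42.0 (genes with at least 10 counts), no gene filter, only the types compared, no doublets, a 5% mitochondrial limit, thinning, clusters at resolution 2, each batch alone and the cells of Batch 1 in a shortened copy of the study's cell list, and, added after seeing the data, lineages without unnamed cells. Coordinates are GRCm38 (GENCODE), and 8 of 10 members had a RefSeq promoter window.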

Additional observations from a re-analysis of the deposited data

Results flagged for a closer look

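The cells left out for high mitochondrial content were used in no comparison. In Batch 2, 1940 cells exceeded the limit, with a median of 1957 UMIs per cell, and all 10 members had more than the 3 UMIs set as a floor, which any detected gene can pass in so many cells; these values are a description. Of the ligands, Tgfb1 stood at 0.123 UMIs per 10000, Tgfb2 at 0.622 and Tgfb3 at 0.0596, against 0.137, 0.494 and 0.0751 in the kept cells of that batch. Of the receptors, Tgfbr1 stood at 0.435, Tgfbr2 at 0.638 and Tgfbr3 at 0.815, against 0.386, 0.631 and 0.852. The binding proteins Ltbp1, Ltbp2 and Ltbp4 stood at 0.227, 0.231 and 0.398, against 0.227, 0.221 and 0.532. Tgfbi stood at 2.31 against 3.51. The cell types of these cells were not determined, and the differences were not tested. In Batch 1 only 1 cell exceeded the limit, and it held no UMI of any member.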

How the results depend on the processing

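Of 46 called differences of single members, all 46 kept direction and call without doublets, 45 with clusters at resolution 2, 43 with no gene filter, 38 under DESeq2 and 33 without the replicate block; 36 of 43 did at a 5% mitochondrial limit, 37 of 45 in fits of only the groups compared, 26 of 34 with cells thinned to 600 UMIs and, as an alternative chosen after seeing the data, 27 of 30 with unnamed cells left out of the lineages. As log2 ratios without a test, 15 of 46 moved by more than the spread between batches without replicate 1, 27 of 46 moved and 1 turned without replicate 2, and in the shortened list of the study's cells 26 of 43 moved and 2 turned. The number of members called without the replicate block was 2 for endothelial cells, 2 for the myofibroblast group and 1 for AT1 against AT2. DESeq2 gave 3 for endothelial cells, 2 for pericytes and 1 for AT1 against AT2. Of all genes it called 3097 of 14689, 804 of 9553 and 768 of 9553 in these comparisons. There edgeR called 3753 of 12219, 752 of 6462 and 779 of 6462. The 5% limit gave 3 for endothelial cells, 2 for pericytes, 1 for mesothelial cells and 1 for AT1 against AT2. Leaving out unnamed cells gave 3 for endothelial cells. Thinning gave 3 for epithelial cells, 2 for the myofibroblast group, 1 for pericytes, 1 for mesothelial cells and 0 for AT1 against AT2 by edgeR. Fits of only the types compared gave 2 for adventitial cells and 1 for AT1 against AT2, no gene filter gave 1 for AT1 against AT2, and the higher resolution gave 2 and 1 for these comparisons. Apart from DESeq2, the share of all genes called under these alternatives is not given, here or in the comparisons above. A changed count of members is therefore no result about the members. The direction turned for endothelial Tgfbr3 (-0.50) and Ltbp4 (-0.0103) against the sum of the other lineages, mesothelial Ltbp4 with thinned cells (-0.77), pericyte Ltbp1 in the listed cells (0.0867), and Tgfbr3 of AT1 against AT2 in the listed cells (-0.18) and in a single batch (-0.70 without replicate 2, 2.07 without replicate 1). The highest type was the same for 6 of 10 members by cells with at least 2 UMIs, for 5 with thinned cells, and for 6 to 7 in a single batch. The causes were not tested beyond the smaller counts that thinning leaves. The number of mice and the few UMIs of Tgfb1, Tgfb3 and Tgfbr1 limit the order of types.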

Other observations

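Some types were counted in the sums of their lineage but compared with no other type. In 77 neutrophil-like cells of Batch 2, Tgfbi had 17 UMIs (0.941 per 10000) and a UMI in 20.8% of cells, and in 31 secretory airway-like cells Tgfb2 had 10 UMIs (0.415 per 10000). Tgfb2 was also found in 28.4% of the 67 ciliated-like cells of Batch 2 at 0.388 UMIs per 10000; their median of 11959 UMIs per cell was high, and with cells thinned to 600 UMIs the share was 0. Cells of mixed lineages held 3.25% of all Tgfbi UMIs in Batch 1 and 3.04% in Batch 2.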
